A study of Mus musculus with 16 samples.

Results

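The 71 genes described here belong to 10 receptor families that bind adrenaline and noradrenaline, prostaglandin E2, sphingosine-1-phosphate (S1P), lysophosphatidic acid (LPA), nucleotides, chemokines, serotonin, melanocortins and endothelins. They were taken by gene symbol alone, from 55357 gene rows measured in whole mouse skin and 56953 in sorted hair follicle stem cells (HFSC), of which 55305 rows are common to both tables. The symbols gave 9 adrenergic, 4 prostaglandin E2, 5 S1P, 6 LPA, 9 P2Y nucleotide, 11 CC chemokine, 6 CXC chemokine, 14 serotonin, 5 melanocortin and 2 endothelin receptor genes. All are G-protein-coupled receptors except Htr3a and Htr3b, which encode subunits of a serotonin-gated ion channel and came in with the serotonin symbols.

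G-protein-coupled receptors cross the membrane and switch on heterotrimeric G proteins when an agonist binds outside the cell. GRK2, a G-protein-coupled receptor kinase, phosphorylates receptors that have bound agonist, after which arrestins attach and uncouple or internalise them. In skin such receptors are known to serve several cell types: S1P and LPA receptors in keratinocytes, S1P receptor 1 in endothelium and lymphocytes, chemokine receptors in leukocytes, melanocortin receptor 1 and endothelin receptor B in melanocytes, and melanocortin receptor 5 in sebocytes.

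The series asks how GRK2 bears on the hair follicle, and compares control with GRK2 eKO mice of the C57BL/6 strain. The labels do not spell out eKO, and name no promoter, Cre line or other allele of either genotype. Whole back skin at 8 months was measured in 5 control and 5 eKO libraries. HFSC, sorted as bulge cells positive for CD34 and α6-integrin, were measured in 3 libraries of each genotype, and their age reads 18 months in the sample labels and 8 months in the series' design text. Whether libraries of a group come from separate animals is not stated, so the spread between them may in part be technical. Values are normalised reads, that is gene read counts divided by a size factor for each library, and both tables were normalised apart.

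Depth ran from 8.21 to 16.4 M reads (M, mega) in skin and from 6.43 to 9.39 M in HFSC. The targeted gene Grk2 was at 1237, 1331, 1331, 1099.7 and 1492 in control skin and at 979.7, 1100.4, 1172, 1076 and 1224 in eKO skin, and at 139, 121 and 144 against 114, 122 and 104 in HFSC. The groups overlapped in both tissues, with log2 fold changes of -0.22 (SE 0.10, limma adjusted p 0.343) and -0.24 (SE 0.23, adjusted p 0.501), so the genotype of a library rests on its label. The bulge markers Cd34 (1157 to 1323 in control and 1160.02 to 1222 in eKO HFSC) and Krt15 (95754 to 119551 over all 6) were present in every sorted library. Markers of other cells differed between the HFSC genotypes: the summed endothelium list was at 56.0 to 71.5 in control and 1206 to 1370 in eKO libraries, and the sebaceous gland list at 4102 to 4447 and 14114 to 15148. The hair matrix list was at 877 to 1025 and 2895 to 3099, the Langerhans and dendritic cell list at 316 to 374 and 1355 to 2258, and the melanocyte list at 1888 to 2270 and 638 to 954. The 4 Y chromosome genes summed to 2340 to 2476 in control and to 704 to 831 in eKO HFSC, and this difference and the genotype cannot be told apart there. In skin, control replicate 5 and eKO replicate 3 held almost no Y chromosome reads, and the hair matrix sum ran from 558 to 166057 in control and from 810.4 to 63334 in eKO libraries.

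Not every receptor could be seen. A total of 14 of the 71 genes were listed at 0 in all 16 libraries: Ptger1 and Ptger2, Ednra, Ccr10, Cxcr6, Htr2b, Htr3a, Htr3b, Htr5a, Lpar6, Mc4r, P2ry12, P2ry13 and P2ry14. A listing at 0 does not show that a gene is silent here, because B2m, which nearly all cells transcribe, was also listed at 0 in all 16, as were 4112 of 21829 protein-coding genes (18.8%). In the GENCODE M21 models, 6 of the 14 share exon sequence with a gene on the opposite strand, such as 7.56% of Lpar6 with Rb1, and so do 10 of the other 57. In skin, 13 more genes had reads without passing the filter of at least 10 in 5 libraries, and 44 were tested. The untested skin receptors reached at most 190.4 in any library, for Mc1r in control replicate 4. In HFSC, 28 genes had no read in any library, where 3 reads correspond to 2.27 to 3.29 normalised reads, another 25 had reads without passing the filter of at least 10 in 3 libraries, and 18 were tested. The untested HFSC receptors reached at most 28.4 in any library.

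In both control tissues, S1pr5 had the highest mean level of all 71 receptor genes. Levels between genes were compared only as normalised reads per kilobase of merged exon, each within its own table. In control HFSC, S1pr5 was highest, at 479 per kilobase (range 464 to 497, n = 3), and no other receptor's libraries reached its range. Among the genes named here, P2ry1 at 321 (299.9 to 338), Lpar1 at 265 (262 to 269) and Lpar3 at 187 (174 to 198) followed, each below every library of the one before. Ptger4 at 109 (98.96 to 120) and Lpar5 at 102 (84.9 to 113) overlapped, and Lpar2 at 67.5, S1pr3 at 43.9 and S1pr2 at 32.0 came below them without overlap. The well-measured receptors of the sorted bulge cells were therefore a short list, for S1P, LPA, ADP and prostaglandin E2.

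Control skin held the same receptors and others besides. S1pr5 was at 273 per kilobase (202 to 303, n = 5), S1pr1 at 219.9 (145 to 303), Lpar1 at 186 (122 to 305) and Ednrb at 185 (70.7 to 364). These 4 overlapped one another, so skin gave no order among them. P2ry1 (145), Lpar3 (107), Lpar5 (93.8), Ccr4 (90.1) and Ptger4 (83.8) followed. Levels set across both tables are descriptions only. The clearest case was Ednrb, the endothelin receptor of melanocytes and endothelium, which was at 302 to 1551 normalised reads in control skin and at 1.05 to 3.99 in control HFSC. A total of 14 genes with reads in skin had none in any HFSC library, among them Ccr6, Cxcr3, Mc2r and P2ry10. These named genes passed the filter in skin, but most of the 14 did not. Depth ran from 8.21 to 16.4 M reads in skin and from 6.43 to 9.39 M in HFSC.

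**Figure D1:**
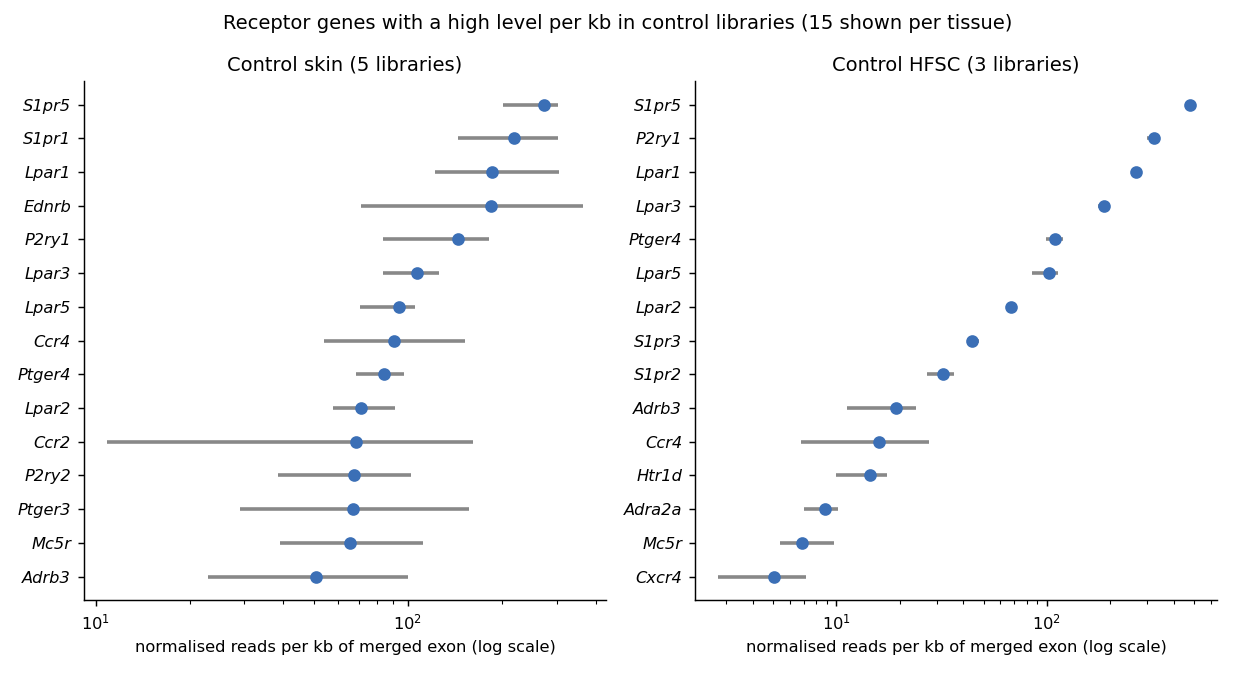
Level of 15 receptor genes high in control skin (left) and 15 high in control HFSC (right), in normalised reads per kilobase of merged exon on a log scale. Points are means and lines run from the lowest to the highest library. S1pr5 stands apart from the rest in HFSC (464 to 497), whereas the upper 4 genes shown for skin overlap.

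The genotype effect was then tested in each tissue, with limma on log2(value + 1) over all genes and Benjamini-Hochberg adjustment at 0.05, so that "rose" and "fell" refer to this test. In HFSC, S1pr3, S1pr1, Mc5r and Lpar5 rose and S1pr5 fell, 5 of the 18 receptors tested (27.8%), against 19.4% of all 13784 genes tested. By direction, 10.7% of all genes rose and 8.74% fell. The edgeR and DESeq2 tests on recovered reads each called 4 receptors higher and 1 lower, against 18.9% and 21.9% of all genes called. The libraries of both genotypes did not overlap for 7 of the 18 (38.9%), against 36.3% of all genes (18.9% higher and 17.4% lower in eKO), so neither share of receptors stood far from the background. S1pr1 passed the filter through all 3 eKO libraries and 1 control library, so its presence among the 18 already leans on its high group. An unadjusted p under 0.05 was reached by 10 of the 18 and by 32.8% of all genes. The log2 changes ran from -2.33 to 5.65, with a median of 0.07 beside -0.029 over all genes. With 3 libraries a side, the smallest two-sided exact permutation p is 0.1, and each of the 5 genes reached it.

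**Figure D2:**
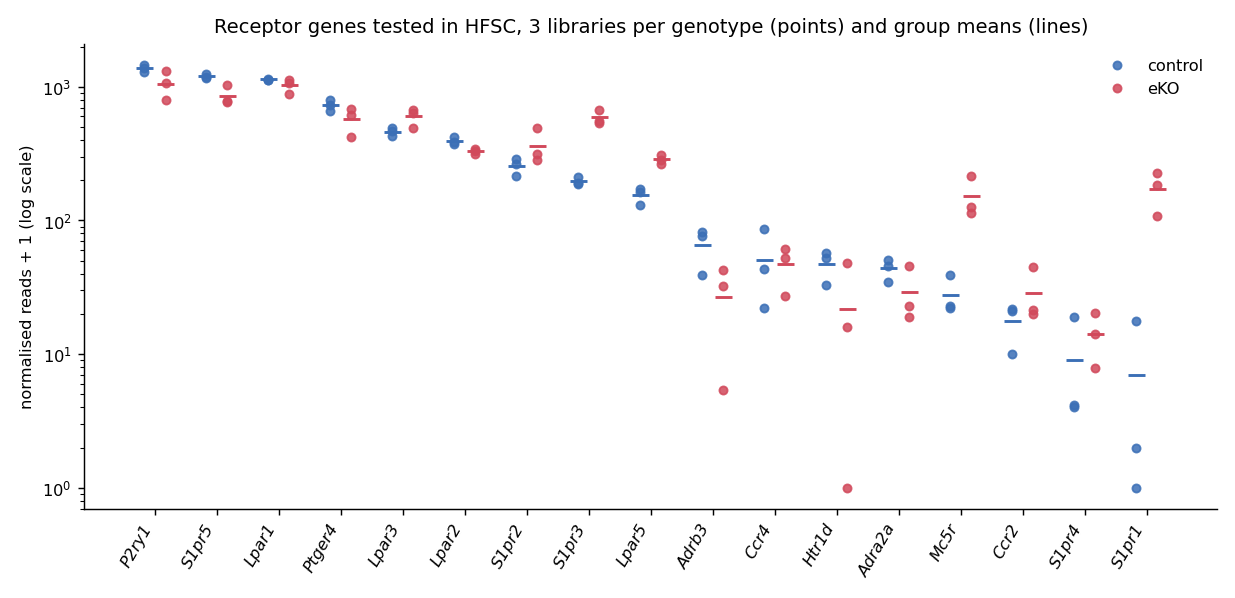
Normalised reads + 1 (log scale) of 17 of the 18 receptor genes tested in HFSC, ordered by their control mean. Each point is a library and each short line a group mean, with control in blue and eKO in red. The 3 eKO libraries lie above all controls for Lpar3, S1pr3, Lpar5, Mc5r and S1pr1, and below all controls for S1pr5 and Lpar2.

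The S1P receptors changed in both directions in HFSC. S1P is a lipid released by endothelium, platelets and other cells. Of its 5 receptors, S1pr1 couples to Gi and promotes migration, S1pr2 and S1pr3 couple to several G proteins, and S1pr4 and S1pr5 are best known from lymphoid cells, natural killer cells and oligodendrocytes. S1pr3 was at 185, 211 and 191 in the control libraries and at 537, 673 and 558 in the eKO libraries. Every eKO library thus lay above every control by a wide margin. The means were 196 ± 13.7 and 589 ± 73.3 (SD, n = 3 each), 3.01-fold apart, and the log2 change was 1.58 (SE 0.16, adjusted p 2.35e-05 by limma).

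S1pr1 was barely read in the HFSC controls, at 0.997, 16.8 and 0, and at 183, 107 and 226 in the eKO libraries. The groups did not overlap, and a single control library carried nearly all control reads. The means were 5.94 ± 9.44 and 172 ± 59.99 (SD, n = 3 each), with a log2 change of 5.65 (SE 0.86, adjusted p 6.07e-04 by limma) that ran from 4.498 to 6.87 over the alternatives, since it depends on the pseudocount and on that library. S1pr1 is a classic endothelial receptor, and the endothelium list moved beside it: 8 of its 9 tested genes rose and 0 fell, with Plvap at 6.75 ± 1.98 and 485 ± 48.7 (SD, n = 3 each) and Vwf and Emcn at 0 in all 3 controls. Cldn5 was at 0 in all 6 libraries. Plvap, and any listed gene at 0 in the controls, could pass the filter only through eKO values. The count of endothelium genes that rose therefore leans on the filter. Among all genes tested in HFSC, 10.7% rose. The sum over all 11 listed genes, to which no filter applied, was at 56.0 to 71.5 in control and 1206 to 1370 in eKO. The part of endothelial cells in the S1pr1 value was not tested. In bulk libraries, fewer cells of a type and less RNA per cell cannot be told apart.

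S1pr5, the highest receptor of the tissue, went the other way. Its control libraries held 1159.8, 1243 and 1191 and its eKO libraries 768, 1024 and 781. All 3 eKO values lay below the lowest control, with eKO replicate 2 closest to it. The means were 1198 ± 42.2 and 858 ± 144 (SD, n = 3 each), a log2 change of -0.49 (SE 0.13, adjusted p 0.0166 by limma). The call was lost when control replicate 1, 2 or 3 or eKO replicate 3 was left out, with log2 fold changes of -0.52, -0.47, -0.50 and -0.43 and adjusted p up to 0.0794. S1pr2 was at 289, 262 and 214 against 284, 487 and 312, with overlapping groups and a log2 fold change of 0.47 (95% interval 0.0022 to 0.93, adjusted p 0.1505). S1pr4 was at 2.99, 3.16 and 18.0 against 6.82, 13.2 and 19.2, with overlapping groups and a log2 change of 0.94 (SE 0.86, adjusted p 0.484). Summed over the family, the control mean was 1663 and the eKO mean 1993 normalised reads.

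**Figure D3:**
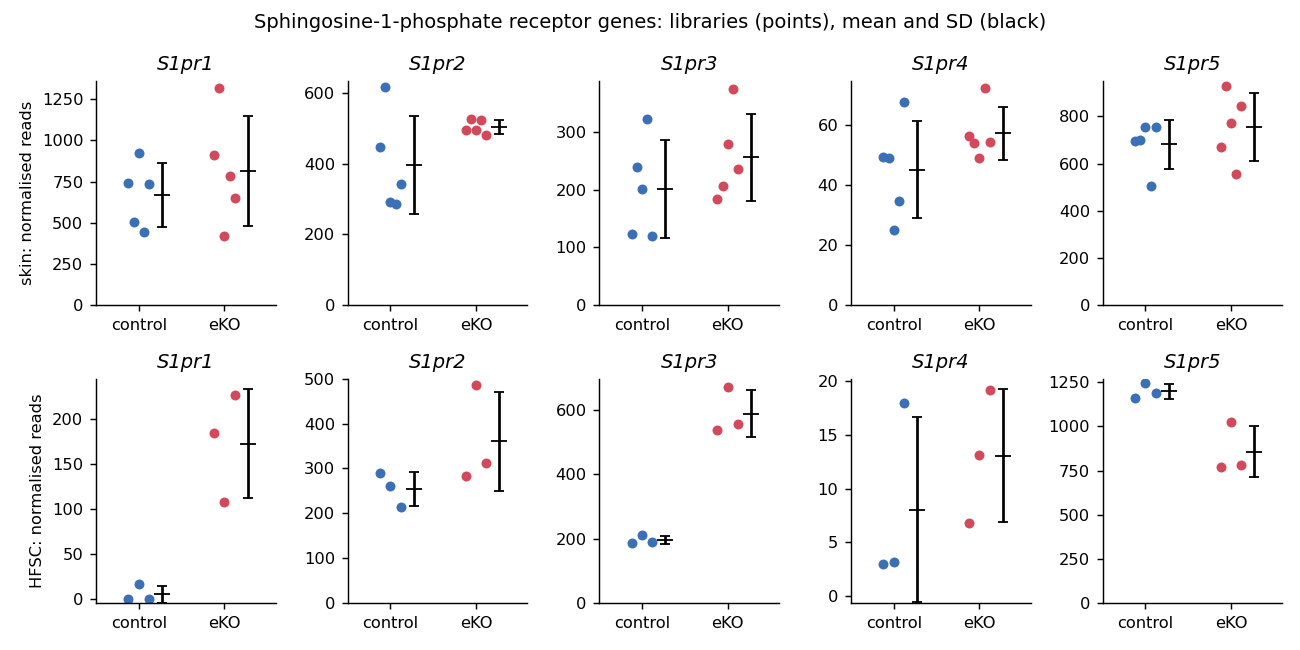
The 5 S1P receptor genes in skin (upper row, 5 libraries per genotype) and HFSC (lower row, 3 per genotype), in normalised reads. Points are libraries, and black marks give the mean and SD. In HFSC, S1pr1 and S1pr3 are higher and S1pr5 is lower in every eKO library, while both genotypes overlap for all 5 genes in skin.

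The stretches upstream of S1pr3 and S1pr5 are shown because these family members were called in opposite directions in the same sorted HFSC libraries. Whether the same cells carried both changes was not tested. Each is the 250 bases before the RefSeq start in build GRCm38.p6, read 5′ to 3′ on the gene's strand, with GGGCGG or its complement CCGCCC (the GC box core) in capitals. S1pr3 lies at chr13:51408368-51408617 on the plus strand and S1pr5 at chr9:21248444-21248693 on the minus strand. The bases just after the start occur in a GENCODE M21 transcript of S1pr5 but in none of S1pr3, so the S1pr3 start rests on RefSeq alone.
S1pr3: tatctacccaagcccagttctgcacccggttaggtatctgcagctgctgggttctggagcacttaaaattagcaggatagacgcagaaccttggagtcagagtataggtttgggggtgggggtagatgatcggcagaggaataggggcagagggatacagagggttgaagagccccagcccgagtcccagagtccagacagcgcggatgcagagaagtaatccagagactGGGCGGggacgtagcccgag
S1pr5: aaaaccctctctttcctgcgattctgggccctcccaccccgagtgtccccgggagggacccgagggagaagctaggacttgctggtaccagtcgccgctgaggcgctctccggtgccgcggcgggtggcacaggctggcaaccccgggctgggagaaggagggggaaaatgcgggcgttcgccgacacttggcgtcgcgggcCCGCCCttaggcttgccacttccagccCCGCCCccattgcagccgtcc
The S1pr3 window holds 1 GC box and 56.4% G and C, and the S1pr5 window 2 GC boxes and 69.2%, where the median over 32851 RefSeq windows is 52.4% and 32.7% of them hold this motif. TATAAA (in 12.4% of windows), CACGTG (6.02%), TGACTCA (4.46%), TGACGTCA (1.55%) and GGAATG (12.6%) were searched on both strands and occur in neither. The table held such windows for 54 of the 71 genes, without S1pr1 and Mc5r.

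The genes that make, export and remove S1P were followed beside the receptors. Of 8 listed, all were tested in HFSC, 3 rose and 1 fell, with a median log2 change of 0.07 beside -0.029 over all genes. Among all genes tested in HFSC, 10.7% rose and 8.74% fell, and these shares apply to every gene list in HFSC. Sphk1, a kinase that makes S1P, was at 89.6 ± 11.3 in control and 188 ± 5.40 in eKO (SD, n = 3 each) and rose by 1.07 on the log2 scale. Spns2, which exports S1P from endothelium and other cells, rose from 5.78 ± 4.22 to 42.7 ± 13.3, by 2.94, and Sgpp1, an S1P phosphatase, by 0.73. Plpp3, which removes lipid phosphates outside the cell, fell from 2615 ± 116 to 1351 ± 123, by 0.95 on the log2 scale. In skin, 0 of the 8 passed.

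Among the LPA receptors, Lpar5 rose in HFSC. It was at 129, 171 and 163 in control and at 309, 282 and 265 in eKO libraries, with no overlap. The means were 154 ± 22.7 and 285 ± 21.9 (SD, n = 3 each), a log2 change of 0.89 (SE 0.19, adjusted p 0.00658 by limma), and the call held in all 13 alternatives. Lpar3 was also above every control, at 674, 492 and 636 against 487, 429 and 464, but its change of 0.37 (SE 0.15) had an adjusted p of 0.102. Without eKO replicate 2 it passed, at 0.51. Lpar2 was at 343, 328 and 311 against 388, 371 and 422, lower in every eKO library, at -0.26 (SE 0.15, adjusted p 0.238). Lpar1, the most abundant LPA receptor per kilobase, was at 1131, 1152 and 1123 against 1058, 1124 and 888, a change of -0.16 (95% interval -0.41 to 0.09). Of the genes for LPA supply and removal, 5 of 8 were tested and 0 passed in HFSC at a median of -0.27, and 0 of 6 tested passed in skin.

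The melanocortin receptor Mc5r rose in HFSC. This receptor is known for its role in sebaceous and other exocrine glands. Its control libraries held 21.9, 37.9 and 20.996 and its eKO libraries 214, 125 and 112. Each eKO value was well above the controls, with eKO replicate 1 highest. The means were 26.9 ± 9.48 and 150.2 ± 55.5 (SD, n = 3 each), and the log2 change was 2.43 (SE 0.37, adjusted p 6.30e-04 by limma), a call that held in all 13 alternatives. The sebaceous gland list moved with it: 7 of 9 genes rose and 0 fell, with Scd1, which desaturates fatty acids, at 1764 ± 80.2 and 7602 ± 939, and none of the 9 at 0. Among all genes tested in HFSC, 10.7% rose. The part of sebaceous cells in the Mc5r value was not tested. Mc1r, the receptor that directs melanocytes to dark pigment, had reads in 1 HFSC library only, at 12.9 in eKO replicate 1. Of the genes for melanocortin supply and accessory proteins, 3 of the 8 in the table were tested and 0 passed, at a median of -0.57.

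**Figure D4:**
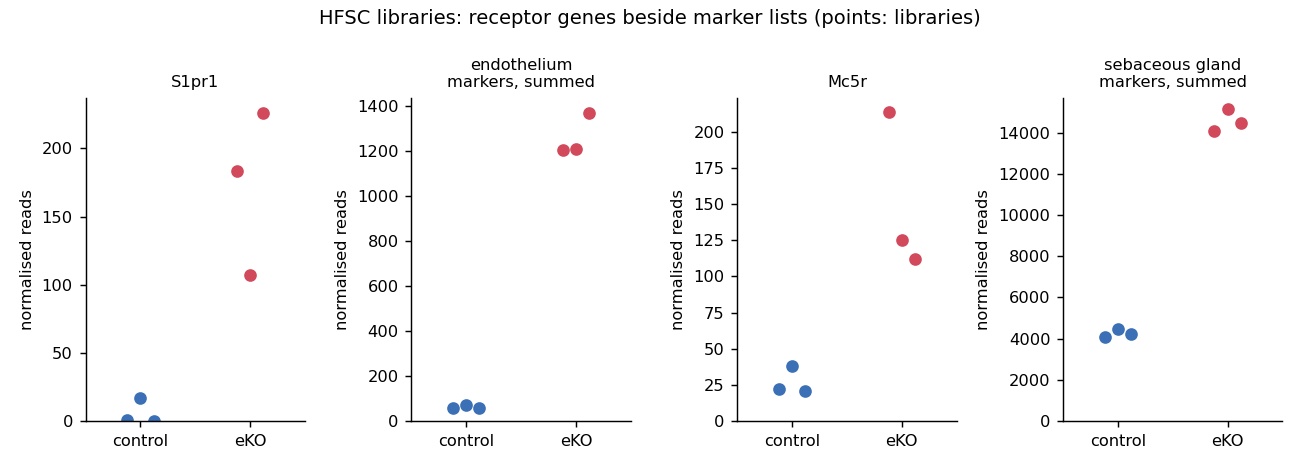
Normalised reads per HFSC library (points) for S1pr1, the summed endothelium markers, Mc5r and the summed sebaceous gland markers. All 4 panels have the 3 eKO libraries above the 3 control libraries, at 107 to 226 against 0 to 16.8 for S1pr1 and at 112 to 214 against 20.996 to 37.9 for Mc5r.

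The nucleotide receptors of HFSC were represented by P2ry1, which responds to ADP. It was at 1393, 1452 and 1287 in control and at 790.00, 1321 and 1058 in eKO libraries, a change of -0.41 (SE 0.16, limma adjusted p 0.0857). The eKO replicate 2 value lay within the control range, and without that library the gene passed at -0.59, as it did with library size scaling at -0.48, where 20.4% of all genes passed. P2ry2, which responds to ATP and UTP, was at 0, 8.42 and 0 against 0, 16.4 and 0. Around the receptors, 9 of 12 genes of nucleotide release and breakdown were tested, 3 rose and 0 fell, at a median of -0.26. Among all genes tested, 10.7% rose and 8.74% fell. Entpd1, the ectoenzyme CD39 of endothelium and leukocytes, rose from 7.78 ± 1.07 to 97.3 ± 30.3 (SD, n = 3 each), by 3.45. It could pass the filter only through eKO values, so the count of 3 leans on the filter. The release channels Panx3 and Panx1 rose by 2.41 and 0.86.

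Of the prostaglandin E2 receptors, Ptger4 was well read in HFSC and did not pass. It was at 795, 727 and 658 in control and at 418, 615 and 684 in eKO libraries, with overlap at eKO replicate 3, a change of -0.37 (95% interval -0.75 to 0.01, limma adjusted p 0.158). Ptger3 was at 4.99, 23.1 and 2.00 against 0, 6.58 and 0 and was not tested. The 9 genes of prostaglandin E2 supply and removal were all tested, 3 rose and 3 fell, at a median of 0.27. Among all genes tested, 10.7% rose and 8.74% fell. The synthases Ptgs1 (COX-1) and Ptges rose by 1.80 and 0.82, Ptgs1 from 172 ± 12.5 to 611 ± 114 (SD, n = 3 each), and the exporter Abcc4 by 0.79. The degrading enzyme Hpgd fell by 0.67 and the uptake transporter Slco2a1 by 0.66, as did Pla2g4a, which frees arachidonic acid, by 0.67.

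Of the 9 adrenergic receptors, 3 were tested in HFSC and 0 passed. Adrb3, the beta receptor best known from fat cells, was at 75.8, 81.0 and 38.0 against 31.1, 4.38 and 41.5, a change of -1.69 (SE 0.68, limma adjusted p 0.103), which was -0.76 without eKO replicate 2. Adra2a, a Gi-coupled receptor, was at 33.9, 49.4 and 45.0 against 44.7, 21.9 and 18.1, a change of -0.67 (SE 0.46, adjusted p 0.341). Adrb1 was at most 2.999 in any library. Of 5 tested genes of catecholamine supply and removal, 0 rose and 1 fell: Slc6a2, the noradrenaline transporter, by 0.88.

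Of the 11 CC and 6 CXC chemokine receptors, 2 were tested in HFSC and 0 passed. Ccr4 was at 84.8, 42.1 and 20.996 against 60.7, 26.3 and 51.1 and Ccr2 at 20.9, 19.99 and 8.998 against 19.0, 43.8 and 20.2, with overlapping groups. Cxcr4, the receptor of Cxcl12, was at 4.99, 9.47 and 13.0 against 0, 1.096 and 1.07 and was too low to test. Ccr6, the receptor of Ccl20, and Cxcr3, that of Cxcl9, had no read in any HFSC library. Cxcr2 was at 0 in every control and at 13.6, 14.3 and 0 in eKO. Pan-leukocyte markers summed to 46.3 to 71.8 in control and 44.7 to 77.3 in eKO libraries, with none of the 5 at 0. Lists of single leukocyte types did not all overlap in this way. The T cell sum was at 38.9 to 47.3 and 151 to 227, and the neutrophil sum at 0 to 1.99 and 14.3 to 22.4. The Langerhans and dendritic cell sum was at 316 to 374 and 1355 to 2258. The macrophage, mast cell and B cell sums overlapped between the genotypes. The part of these cells was not tested. In the T cell list Thy1 alone was tested and it rose, and Trdc and Cd8a were at 0.

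Of 26 chemokine ligand genes, 8 were tested in HFSC, 4 rose and 2 fell, and 13 were at 0 in all 6 libraries. The shares over all genes tested were 10.7% risen and 8.74% fallen. The median change was 1.19, also with Ccl20 set to its bound. Ccl20 was at 0.667 ± 1.15 in control, with at most 1.9996 in a library, and at 66.5 ± 15.7 (SD, n = 3 each) in eKO. It could pass the filter only through eKO values, so the count that rose and the median lean on the filter. Ccl7, Cxcl9 and Cxcl16 rose by 1.66, 1.52 and 0.86. Cxcl12, by far the most read of them, fell from 5147 ± 129 to 3137 ± 374, by 0.72, and Ccl25 fell by 1.03.

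Serotonin and endothelin receptors gave no call in HFSC. Htr1d, a Gi-coupled serotonin receptor, was at 31.9, 55.8 and 51.0 against 47.0, 0 and 14.9, a change of -2.33 (SE 1.06, limma adjusted p 0.147) that 1 library could move widely: it passed at -3.53 without eKO replicate 1 and was -0.73 without eKO replicate 2, the library at 0. The edgeR and DESeq2 estimates were -1.10 and -1.14. Htr2a was at most 7.36. Of the serotonin supply genes, Slc18a2, the vesicular monoamine transporter, rose by 0.76 as 1 of 2 tested. Ednrb stayed at 3.99 or less, while 3 of 4 tested genes of endothelin supply rose and 1 fell: Edn1 from 19.5 ± 9.75 to 75.9 ± 25.1 (SD, n = 3 each), by 1.96, Edn2 by 0.91 and the converting enzyme Ece1 by 0.45, against the endothelin-degrading peptidase Mme, which fell by 0.94. Among all genes tested, 10.7% rose and 8.74% fell.

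In whole skin, 0 of the 44 receptors tested passed with limma, against 0.374% of all 16589 genes. The smallest adjusted p was 0.141. An unadjusted p under 0.05 was reached by 2 of the 44, P2ry4 and Cxcr4, against 14.2% of all genes, and the genotypes did not overlap for 0 of the 44, against 4.18%. The edgeR test called 0 of the 44 and the DESeq2 test 1, against 0.326% and 3.99% of all genes. The fitted changes were positive in 29 and negative in 15, with a median of 0.28 beside 5.91e-05 over all genes.

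P2ry4, a receptor for UTP and, in mouse, ATP, had the smallest p in skin. Its control libraries held 163, 212, 225, 131 and 179.6 and its eKO libraries 102, 108, 112, 104 and 148. The groups overlapped through control replicate 4 and eKO replicate 5. The means were 182 ± 37.9 and 115 ± 18.9 (SD, n = 5 each), a log2 change of -0.65 (SE 0.17, limma adjusted p 0.141, two-sided exact permutation p 0.0159). This was the gene called by DESeq2, at -0.68 (adjusted p 0.0112). Cxcr4 was at 108, 83.5, 48.0, 93.4 and 68.4 in control and at 133, 107, 254, 119.8 and 92.1 in eKO skin, a change of 0.76 (SE 0.30, limma adjusted p 0.275), with eKO replicate 3 far above the rest. Without the libraries low in Y chromosome reads, control replicate 5 and eKO replicate 3, the change was 0.48.

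Leukocyte receptors ranged widely between the skin libraries of both genotypes. Ccr2 ran from 73.7 to 1098 in control and from 243 to 665 in eKO skin, and Cxcr2, the neutrophil receptor, from 10.3 to 281 and from 17.8 to 352. Cxcr2 was highest in the libraries with the highest neutrophil sums, control replicate 2 (847) and eKO replicate 4 (1605), where the others ran from 27.1 to 262. The macrophage sum was also highest in control replicate 2, at 12459. The part of these cells was not tested. Ccr6, on the dendritic and T cells that follow Ccl20, was at 10.3 to 42.6 in control and 25.3 to 40.1 in eKO skin, a change of 0.71 (SE 0.34, adjusted p 0.379). Its ligand Ccl20 rose from 15.7 ± 7.54 to 118 ± 52.5 (SD, n = 5 each), by 2.87 (adjusted p 0.0136), the 1 ligand or enzyme gene of all 9 lists that passed in skin. Ccr7 (0.77), Cxcr3 (0.81), Ednrb (0.33), Ptger3 (0.25), P2ry2 (-0.34), Htr2a (-0.16), Adrb1 (0.13), Adra2a (0.32), Lpar1 (0.36), Ptger4 (-0.02) and Cxcr2 (0.37) gave log2 changes with adjusted p from 0.505 to 0.949.

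Mc1r was read mainly in 1 skin library, control replicate 4, at 190.4, and at 17.8 or less in the other 9. The melanocyte list summed to 8836 in that library and to 1289 to 2702 in the others, and its hair matrix sum was the highest of skin, at 166057. Mc5r was at 192, 153, 217, 437 and 281 in control and at 371, 256, 763, 425 and 231 in eKO skin, a change of 0.64 (95% interval -0.14 to 1.41, limma adjusted p 0.454). Of the sebaceous genes, 4 of 9 rose in skin, against 0.229% of all genes tested there. S1pr3 gave 0.40 (-0.25 to 1.05), S1pr1 0.24 (-0.42 to 0.89), S1pr5 0.14 (-0.21 to 0.48) and Lpar5 -0.08 (-0.43 to 0.27, and 0.0081 without eKO replicate 1).

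Whether the genotype effect differed between the tissues was tested as a difference of differences over 13227 genes tested in both, of which 5.62% passed. The tissues also differed in table and in labelled age, 8 months in skin and 18 months in HFSC. The HFSC genotypes differed in Y chromosome reads as well. None of these can be told apart from tissue in this contrast. Of the 18 receptors, 2 passed (11.1%), both more positive in HFSC, where 3.44% of all genes did so. The log2 change of S1pr1 was 5.65 in HFSC and 0.24 in skin, a difference of 5.42 (SE 0.91, limma adjusted p 0.00175) that passed in all 19 alternatives. That of Lpar5 was 0.89 in HFSC and -0.08 in skin, a difference of 0.97 (SE 0.25, adjusted p 0.0321). It lost the call in 6 fits that left out 1 library (skin control replicate 2 or 3, skin eKO replicate 1 or 3, HFSC control replicate 1 or HFSC eKO replicate 1), with differences of 0.85 to 0.96 and adjusted p up to 0.0980.

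For the other HFSC calls, the difference from skin missed the threshold. It was 1.79 for Mc5r (95% interval 0.65 to 2.94, limma adjusted p 0.0637), 1.18 for S1pr3 (0.32 to 2.03, adjusted p 0.1001) and -0.63 for S1pr5 (-1.12 to -0.14, adjusted p 0.123). For S1pr2, with 0.47 in HFSC and 0.41 in skin, the difference was 0.06 (-0.61 to 0.73). For P2ry1, with -0.41 and -0.12, it was -0.29 (-0.92 to 0.34).

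**Figure D5:**
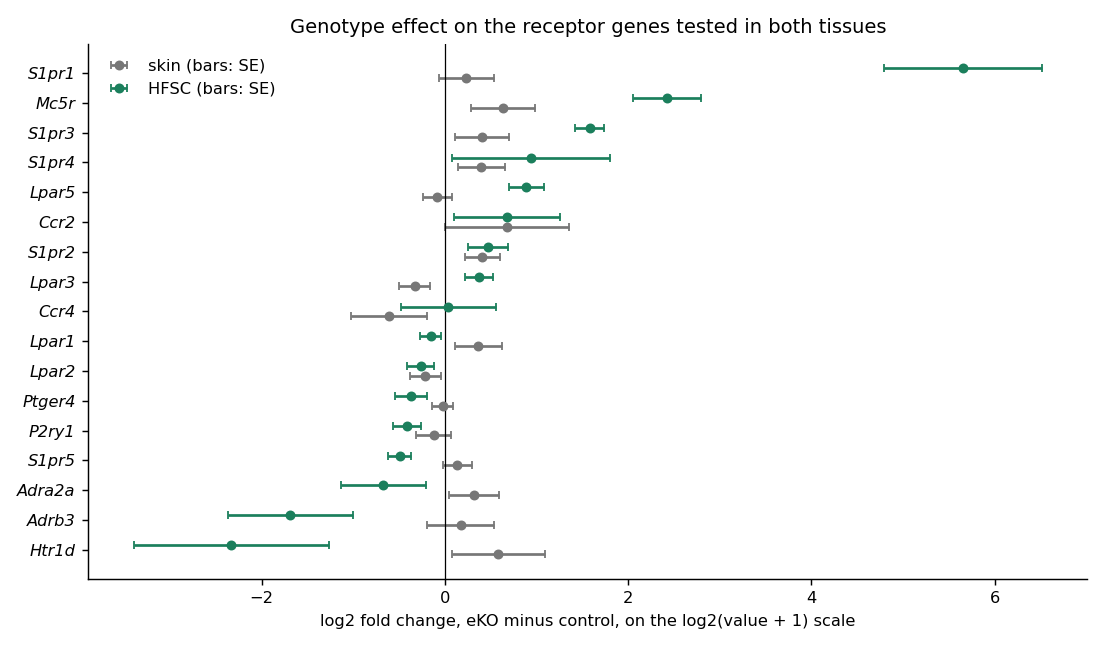
Log2 fold change (eKO minus control, on the log2(value + 1) scale) of 17 of the 18 receptor genes tested in both tissues, in skin (grey) and HFSC (green), with bars of 1 SE. S1pr1 lies at 5.65 in HFSC and 0.24 in skin, and Lpar5 at 0.89 and -0.08.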

How the data were processed

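Bulk RNA sequencing of 10 skin and 6 HFSC libraries was analysed from 1 deposited table per tissue. The deposited values are a signal: gene read counts that the authors divided by 1 size factor per library, as whole reads are recovered from the values within a tolerance of 0.01. Per the submitters' processing notes, the build was GRCm39, and featureCounts and DESeq2 were used for skin, with no versions. The aligner and the use of strand are not given in the sources used here. No coordinates are given for the measured genes, since the annotation at hand is of another build. Names and exon lengths came from GENCODE M21 by identifier (94.1% of skin and 91.4% of HFSC rows named) and promoter sequences from RefSeq GRCm38.p6.

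Genes with at least 10 in 5 skin or 3 HFSC libraries were tested with limma 3.58.1 (trend) on log2(value + 1), with Benjamini-Hochberg adjustment over all genes tested and a threshold of 0.05. The difference between tissues was a contrast of 4 group means. Fold changes of low genes on this scale depend on the pseudocount and can lie on either side of the edgeR estimate. In HFSC they were 5.65 against 4.87 for S1pr1, -2.33 against -1.10 for Htr1d and 2.43 against 2.49 for Mc5r. Tests with edgeR 4.0.16 and DESeq2 1.42.0 on recovered reads, other pseudocounts (0.5 and 4), no filter, library size scaling and fits without single libraries were alternatives. The procedure was tested on simulated data with the same spread setting for every gene. Changes were put only into genes with higher means, so low genes and genes of wider spread were not covered. The 71 receptors and the gene lists were chosen with earlier results of these data known. Named are all receptors that passed or did not overlap at 0.58 or more, the highest of each family per kilobase, and a fixed list of skin receptors. Some genes are not reported here. HFSC replicate numbers were not used as pairs. Limits from 3 reads cover counting error only, since reads carry no molecular identifiers. Depth was 11.6 to 14.2 M reads in control skin and 8.21 to 16.4 in eKO skin, and 6.43 to 6.73 and 6.43 to 9.39 in HFSC.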

Additional observations from a re-analysis of the deposited data

Results flagged for a closer look

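Among 84 groups of 5 skin libraries, for the tested receptors reported here, 10 held a library whose gap to the nearest of the others exceeded 0.71 of the group's range, where chance gives about 1 in 20. Control replicate 2 stood high for Ccr1 (526, others up to 63.7) and Cxcr2 (281, others up to 60.5). In eKO replicate 4, Cxcr2 was at 352, with the others up to 45.3. Control replicate 1 stood high for Ptger3 (898, others up to 373) and Adrb1 (54.9, others up to 19.4). In eKO replicate 3, Cxcr4 was at 254 and Lpar2 at 517, with the others up to 133 and 335. Lpar4 was at 65.9 in eKO replicate 1 (others 39.5 to 43.1) and P2ry4 at 148 in eKO replicate 5 (others 102 to 112). S1pr5 was low in control replicate 4, at 505, with the others at 694 to 757.

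The genotype effect differed between tissues for S1pr1, by 5.42, and for Lpar5, by 0.97 on the log2 scale, HFSC minus skin, in the tested contrast.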

How the results depend on the processing

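Over 32 results for named receptors and their 507 alternatives, 484 kept direction and side of the threshold, 22 changed side and 1 changed direction: Lpar5 in skin, at 0.0081 without eKO replicate 1 and at -0.18 at the other end, without control replicate 5. In skin, the 62 genes called over all genes became 37 without the filter (29 higher), 656 with DESeq2 (332 higher, 324 lower), 32 with library size scaling, 150 with the hair matrix list as covariate and 0 without both libraries low in Y chromosome genes (limma, with 1790 genes at an unadjusted p under 0.05, of them 5 receptors), and 11 to 59 without single libraries. Receptors called in skin numbered 1 with DESeq2 and 0 in every fit without a single library. In HFSC, fits without single libraries called 1540 to 2643 genes and 4 to 7 receptors, and library size scaling called 2807 genes (1271 higher, 1536 lower, with the median of all genes at -0.097). For the difference between tissues, each tissue's own standard error called 1448 genes and 6 receptors, adding Mc5r (1.79), S1pr3 (1.18), Lpar3 (0.70) and S1pr5 (-0.63), and fits without single libraries called 452 to 837 genes and 1 or 2 receptors. The causes were not tested. In HFSC, 53 of 71 receptors were untested, and the part of depth in this was not tested.

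With the replicate number as a block, HFSC gave 2696 genes and 6 receptors, adding P2ry1 (-0.41), which also passed with library size scaling (-0.48). Deviations of same-numbered HFSC libraries correlated at -0.060, -0.018 and -0.026, which gave no sign of pairing. What a replicate number shares is not stated, and such correlations over all genes cannot exclude pairing.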
